A study of Mus musculus with 15 samples.

Results

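The mitosis and G2/M gene set held 36 genes, listed by name, whose products drive a cell from the end of DNA replication through chromosome segregation to the separation of the daughter cells. Of these, 35 were measured by a probe set that carried their symbol alone, out of 18193 genes measured in that way in the whole series, and each was read on its probe set with the highest mean over all arrays. Ccnb1 was not analysed here. The measured genes comprised 6 genes of the CDK1 switch, 7 of mitotic kinases, 3 of the checkpoint and survivin, 5 of the kinetochore, 6 of the spindle, 6 of cytokinesis and 2 others, Top2a and Mki67.

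The study asked how inhibition of the kinase MEK acts in concert with an agonist antibody (Ab) against the immune receptor CD40. PDA30364 cells, a mouse pancreatic ductal adenocarcinoma line, were grown under the skin of C57BL/6-Ly5.1 mice aged 6 to 12 weeks, and tumors were taken on day 26. RNA was isolated from pieces of the tumors, so each array reads a part of its tumor. The MEK inhibitor GDC-0623 was given daily at 30 mg/kg, with its vehicle in the other arms, and CD40 Ab or control IgG was injected on days 3, 5 and 7 of treatment, with a last dose 1 day ahead of analysis. The 15 tumors, hybridized to 1 Affymetrix array each, comprised 4 given the inhibitor and CD40 Ab (MEKi+CD40), 3 given the inhibitor and control IgG (MEKi), 4 given vehicle and CD40 Ab (CD40) and 4 given vehicle and control IgG (Ctrl). All groups thus carried the same tumor line, a transplant outside the pancreas in hosts with an intact immune system. An unsorted tumor piece mixes cancer cells with stroma and immune cells. A smaller share of dividing cells and less transcript per dividing cell cannot be told apart in such samples.

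Entry into mitosis is set by CDK1, a kinase that needs a cyclin partner and is switched on by CDC25 phosphatases. Polo-like and Aurora kinases then build the spindle, kinetochores fasten chromosomes to it, and a checkpoint holds back anaphase until every chromosome is attached. Genes of this phase are transcribed late in the cell cycle. Their timing is controlled by the DREAM and MuvB complexes, which read a cell cycle genes homology region (CHR), and by the factor NF-Y, which reads CCAAT boxes. Signaling through MEK and ERK drives entry into the cell cycle in many tumors.

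The promoters of the mitotic genes shared a sequence layout that their selection by name had not used. RefSeq promoters on mouse build GRCm38.p6, each running from 250 bases before to 50 bases after the start of a gene, were found for 29 of the 35 genes. No entry was matched for Aurkb, Ccna2, Cdc25c, Foxm1, Kif20a and Tpx2. The CHR was searched as TTTGAA or TTCGAA and the NF-Y box as CCAAT, both on either strand, and matches of both motifs can share no more than an end base. A CHR was present in 23 of 29 mitotic genes (79.3%), against 17.5% of 14452 measured genes with a promoter and 19.2% of all 32851 promoters. A CCAAT box was present in 21 (72.4%), against 42.0% of measured genes and 37.4% of all promoters, and both were present in 20 (69.0%), against 7.05% of measured genes and 7.52% of all promoters. In 21 of 29 genes (72.4%) a CHR began within 40 bases of the start, which was so in 3.99% of measured genes. A match is a description of letters and not a shown binding site.

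The 5 promoters below are those with both motifs whose genes had the lowest MEKi to Ctrl ratios, and they show the CCAAT boxes lying upstream of a CHR at the start. Each runs 5′ to 3′ on the strand of the gene, from 120 bases before the start to the last base of the CHR nearest to it, with CCAAT (or ATTGG, its reverse) and the CHR in capitals. Positions count from 1 at the first transcribed base and from -1 just before it. They are Ccnb2 at chr9:70421545-70421674 on the minus strand, Cenpa at chr5:30666766-30666907 on the plus strand, Aurka at chr2:172370533-172370690 on the minus strand, Aspm at chr1:139454653-139454784 on the plus strand and Plk1 at chr7:122159315-122159470 on the plus strand.
Ccnb2: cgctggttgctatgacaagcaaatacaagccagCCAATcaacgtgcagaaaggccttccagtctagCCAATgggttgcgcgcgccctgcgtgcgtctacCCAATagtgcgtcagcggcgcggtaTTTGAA
Cenpa: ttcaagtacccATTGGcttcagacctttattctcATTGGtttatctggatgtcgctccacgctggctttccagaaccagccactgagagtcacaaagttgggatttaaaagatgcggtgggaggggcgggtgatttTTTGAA
Aurka: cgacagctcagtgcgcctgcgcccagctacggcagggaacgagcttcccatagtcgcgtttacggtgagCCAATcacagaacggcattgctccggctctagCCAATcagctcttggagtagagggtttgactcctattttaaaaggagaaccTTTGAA
Aspm: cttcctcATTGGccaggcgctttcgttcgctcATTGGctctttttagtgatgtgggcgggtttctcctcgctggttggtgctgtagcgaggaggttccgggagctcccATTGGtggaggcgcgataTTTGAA
Plk1: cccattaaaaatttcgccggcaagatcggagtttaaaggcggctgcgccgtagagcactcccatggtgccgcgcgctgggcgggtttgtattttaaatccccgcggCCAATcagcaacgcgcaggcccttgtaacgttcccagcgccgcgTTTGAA

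In Ccnb2 the CCAAT boxes began at -87, -54 and -21 and the CHR at 5. In Aspm, 3 boxes and a CHR at 7 had the same order, and in Aurka the boxes at -51 and -19 preceded a CHR at 33. Over the 23 genes with a CHR, the one nearest the start began at a median position of 7, with a range of -103 to 41. In 20 of them a CCAAT box lay upstream of it, at a median of 35 bases between the first bases of both motifs (range 9 to 153).

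**Figure D1:**
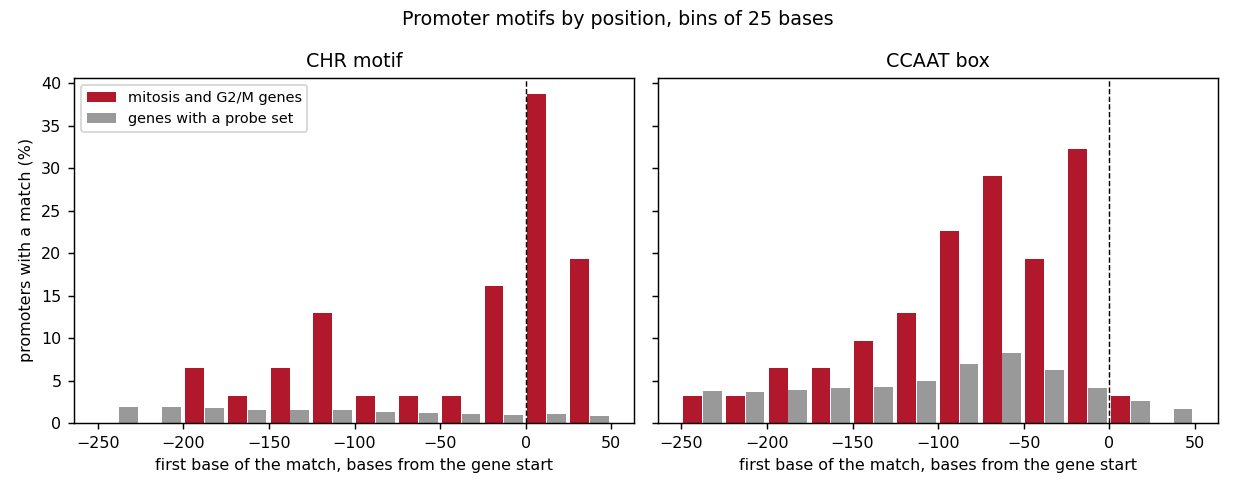
Share of promoters (%, vertical axis) with a CHR (left) or CCAAT (right) match beginning in each bin of 25 bases, by distance in bases from the start, for mitosis and G2/M genes (red) and all measured genes with a promoter (gray). The CHR of the mitotic genes was most frequent in the 25 bases after the start, in 38.7% of their promoters, while CCAAT boxes spread over the bases upstream.

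The 6 genes with a promoter but no CHR were Nusap1, Cenpe, Birc5, Melk, Mad2l1 and Nuf2. Their median MEKi to Ctrl log2 fold change (FC) was -1.08, against -1.21 in the 23 genes with a CHR, so these few genes covered much the same range of change. E2F sites, searched as TTCCCGC or TTCGCGC or TTGCCGC or TTGGCGC on either strand (the last can share bases with a CCAAT box), were found in 3 of 29 mitotic genes (10.3%), against 16.0% of measured genes. The layout was not particular to the listed genes: of 61 other mitosis genes with a promoter, 65.6% held a CHR, 63.9% a CCAAT box, 45.9% both and 32.8% an E2F site, and a CHR lay near the start in 49.2%. Among 25 genes of DNA replication, the phase before G2, a CHR was found in 5 (20.0%), a CCAAT box in 15 and an E2F site in 16 (64.0%).

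Mitotic transcripts were lower in every tumor that had received the inhibitor than in the mean of the Ctrl tumors. The mean log2 signal over the 35 genes was 8.18, 8.39, 8.50 and 7.65 in MEKi+CD40 tumors 1 to 4 and 6.81, 7.96 and 8.19 in MEKi tumors 1 to 3. It was 9.03, 9.09, 8.68 and 8.61 in CD40 tumors 1 to 4 and 9.10, 8.85, 8.91 and 8.56 in Ctrl tumors 1 to 4. The 7 inhibitor-treated tumors thus all lay below the 8 vehicle-treated tumors, while CD40 and Ctrl tumors overlapped throughout. The group means were 8.18 ± 0.38 (SD, n = 4) in MEKi+CD40, 7.65 ± 0.74 (n = 3) in MEKi, 8.85 ± 0.24 (n = 4) in CD40 and 8.85 ± 0.23 (n = 4) in Ctrl tumors.

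**Figure D2:**
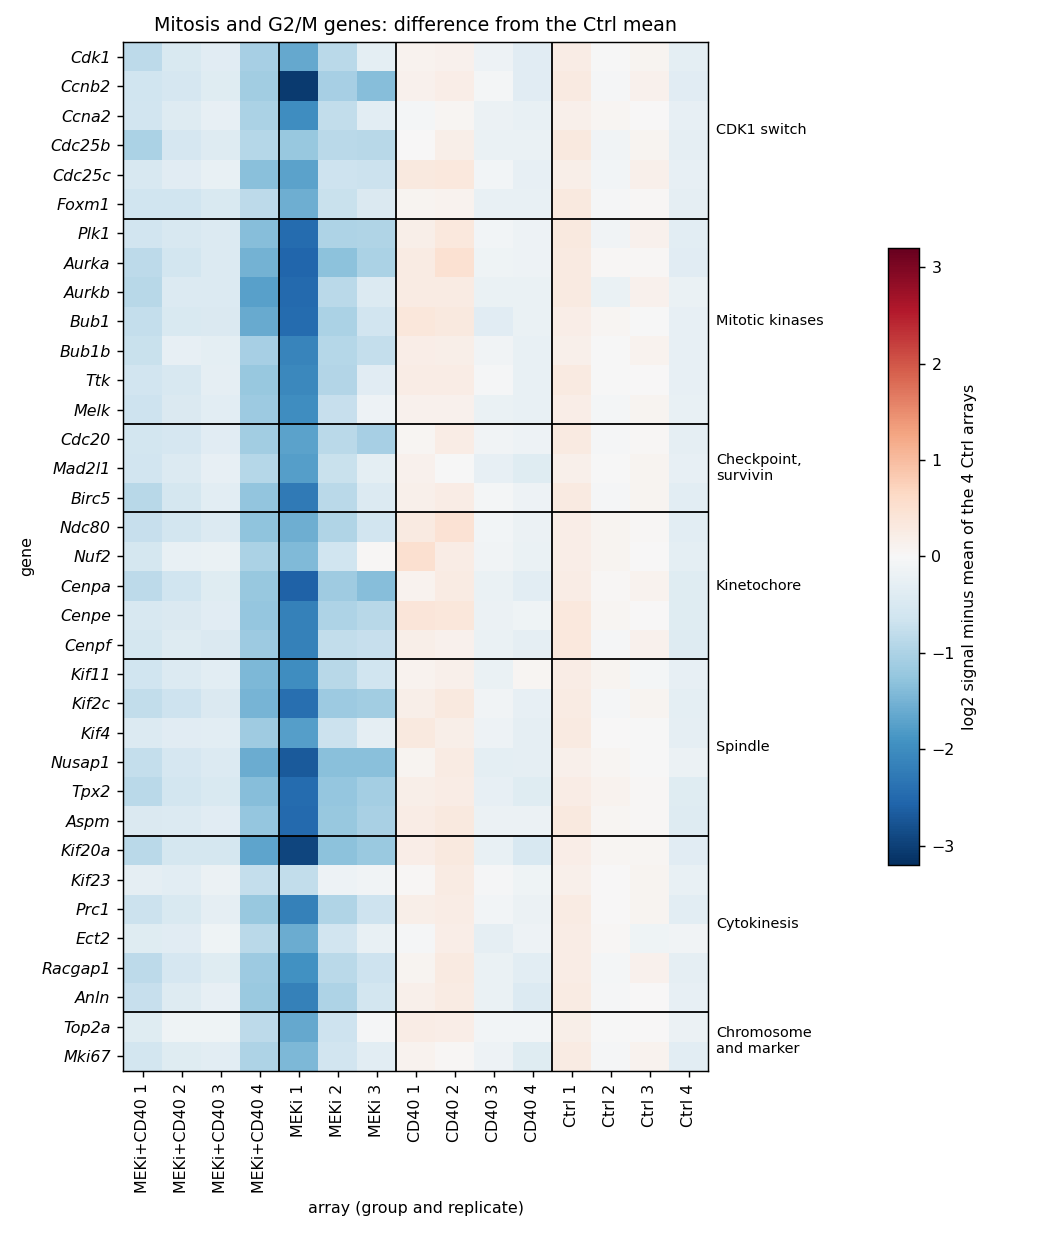
Log2 signal minus the mean of the 4 Ctrl arrays (color, blue lower and red higher) for each mitosis and G2/M gene (rows, by role) in each of the 15 arrays (columns, by group). Blue runs through nearly every gene of the inhibitor-treated tumors and is deepest in MEKi 1 (median difference -2.06 over the genes) and MEKi+CD40 4 (-1.20).

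The spread within the groups was shared by the whole set. MEKi 1 had the lowest value of its group in all 35 genes and MEKi+CD40 4 in 34, and Ctrl 4 was lowest among Ctrl tumors in 34 and Ctrl 1 highest in 35. All 35 genes lay below the lowest Ctrl tumor in MEKi+CD40 1, MEKi+CD40 4 and MEKi 1, against 31 in MEKi+CD40 2, 23 in MEKi+CD40 3, 34 in MEKi 2 and 31 in MEKi 3. Of all measured genes, 32.6% to 36.7% lay below the lowest Ctrl tumor in single MEKi+CD40 tumors and 33.7% to 44.1% in single MEKi tumors. In CD40 tumors 1 to 4 the counts below were 0, 0, 5 and 10, where 20.5% to 26.7% of all measured genes lay below. In CD40 1 and CD40 2 there were 8 and 15 of the 35 genes above the highest Ctrl tumor. Above it lay 22.54% and 24.98% of all measured genes in CD40 1 and CD40 2. MEKi 1 also had higher mean levels than MEKi 2 and MEKi 3 for markers of several other cells. Levels were 10.16 against 7.31 and 7.42 for skeletal muscle and 10.07 against 8.72 and 9.22 for macrophages. They were 6.81 against 4.63 and 4.75 for B cells and 6.88 against 5.88 and 5.99 for endothelium. For T cells they were 6.86 against 5.18 and 6.22, so MEKi 3 lay nearer to MEKi 1 than to MEKi 2. Fibroblast markers were also highest in MEKi 1, at 11.67. MEKi 1 was lower than both for epithelial (10.15 against 10.52 and 10.42) and skin markers (6.14 against 6.73 and 6.61). The part of the other cells in the low mitotic signals of MEKi 1 was not tested.

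The comparison of MEKi+CD40 with Ctrl tumors addressed the joint effect of both agents. Of the 35 genes, 22 fell and 0 rose at an adjusted p under 0.05 (limma, Benjamini-Hochberg over all 45037 probe sets), where 8.72% of all measured genes were lower. All 35 log2 FC values were negative, with a median of -0.66 (range -0.92 to -0.37), so that the median gene stood at 63.3% of its Ctrl signal. The median over all measured genes was -0.04. In 21 genes all 4 MEKi+CD40 tumors lay below all 4 Ctrl tumors, as was so in 14.4% of all measured genes. The count of 22 depended on single arrays and on the error model: it was 2 without Ctrl 1, 3 without Ctrl 2, 1 without Ctrl 3, 4 without MEKi+CD40 1 and 4 in a fit of all 15 arrays, while the median log2 FC stayed between -0.79 and -0.50 when any array was left out.

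In MEKi compared with Ctrl tumors, which were given the inhibitor or its vehicle with control IgG, 22 genes fell and 0 rose, where 10.4% of all measured genes were lower. These groups also differed in their series of animal numbers, described below. In a fit of all 15 arrays 32 genes fell, and 9 did with the series as covariate. The median log2 FC was -1.19 (range -1.83 to -0.36), or 43.8% of the Ctrl signal, and again all 35 values were negative. The median over all measured genes was -0.04 here too. All 3 MEKi tumors lay below all 4 Ctrl tumors in 31 genes, against 19.3% of all measured genes, and Melk, Nuf2, Kif23 and Top2a overlapped. The count fell to 7 without Ctrl 1 and to 9 without Ctrl 2 or Ctrl 3, and was 33 without MEKi 3. Without MEKi 1 the median log2 FC was -0.77.

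The inhibitor comparisons share the same Ctrl arrays, so their values are given side by side. Both called 15 genes, MEKi+CD40 alone called Birc5, Ccna2, Cdk1, Mad2l1, Melk, Mki67 and Ttk, and MEKi alone called Anln, Aspm, Bub1b, Cdc25c, Cenpe, Cenpf and Kif11. Neither called Aurkb, Ect2, Kif23, Kif4, Nuf2 and Top2a. A gene called in only 1 of the comparisons is not thereby shown to differ between them, since the direct comparison of the groups called 0 genes.

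With CD40 Ab alone, values of the set scattered around those of Ctrl tumors. None of the 35 genes passed the threshold of limma, where 0.0495% of all measured genes were lower and 1.01% higher. An unadjusted p under 0.05 was found in 0 of them and in 2094 of all 18193 measured genes. The median log2 FC was 0.01 (range -0.13 to 0.12), and the 95% intervals of the single genes lay between -0.47 and 0.49, so a change larger than that was outside every interval.

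Set against MEKi tumors, MEKi+CD40 tumors had higher mean signals in 34 of 35 genes, but the groups overlapped in all of them and 0 genes passed the threshold of limma. Of all measured genes, 1.38% were higher and 2.65% lower. The median log2 FC was 0.46 (range -0.04 to 1.16), and 5 of 35 genes had an unadjusted p under 0.05, namely Cenpa, Aspm, Ccnb2, Nusap1 and Cdc20. Such a p was found in 3869 of all 18193 measured genes. MEKi 1 decided the size of this difference, as the median was 0.05 without it and 0.80 without MEKi 3. With MEKi 1 and MEKi+CD40 4 both left out, a choice made after seeing the data, 3 genes were higher and the median was 0.24. The interaction is the log2 FC of MEKi+CD40 against MEKi minus that of CD40 against Ctrl. It had a median of 0.50 over the set and passed the threshold of limma in 0 genes, with 4 of 35 at an unadjusted p under 0.05. The interaction had such a p in 3715 of all 18193 measured genes. Over all measured genes it passed with a positive sign in 2.00% and with a negative sign in 2.56%. Its median was 0.09 without MEKi 1 and 0.79 without MEKi 3.

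Compared with CD40 tumors, which had the same antibody without the inhibitor, MEKi+CD40 tumors had 6 lower genes, namely Foxm1, Ndc80, Cdc25b, Birc5, Cdc20 and Kif2c, where 2.52% of all measured genes were lower and 3.69% higher. The median log2 FC was -0.68 (range -0.96 to -0.38), close in size to that against Ctrl tumors, and in 28 genes the MEKi+CD40 tumors lay below all CD40 tumors, against 10.1% of all measured genes, with 7.26% of all genes above them in the same way. The count of 6 rested on single arrays: it was 0 without CD40 2, MEKi+CD40 1, MEKi+CD40 2 or MEKi+CD40 4, 1 without CD40 1, CD40 3 or CD40 4, and 13 without MEKi+CD40 3.

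**Figure D3:**
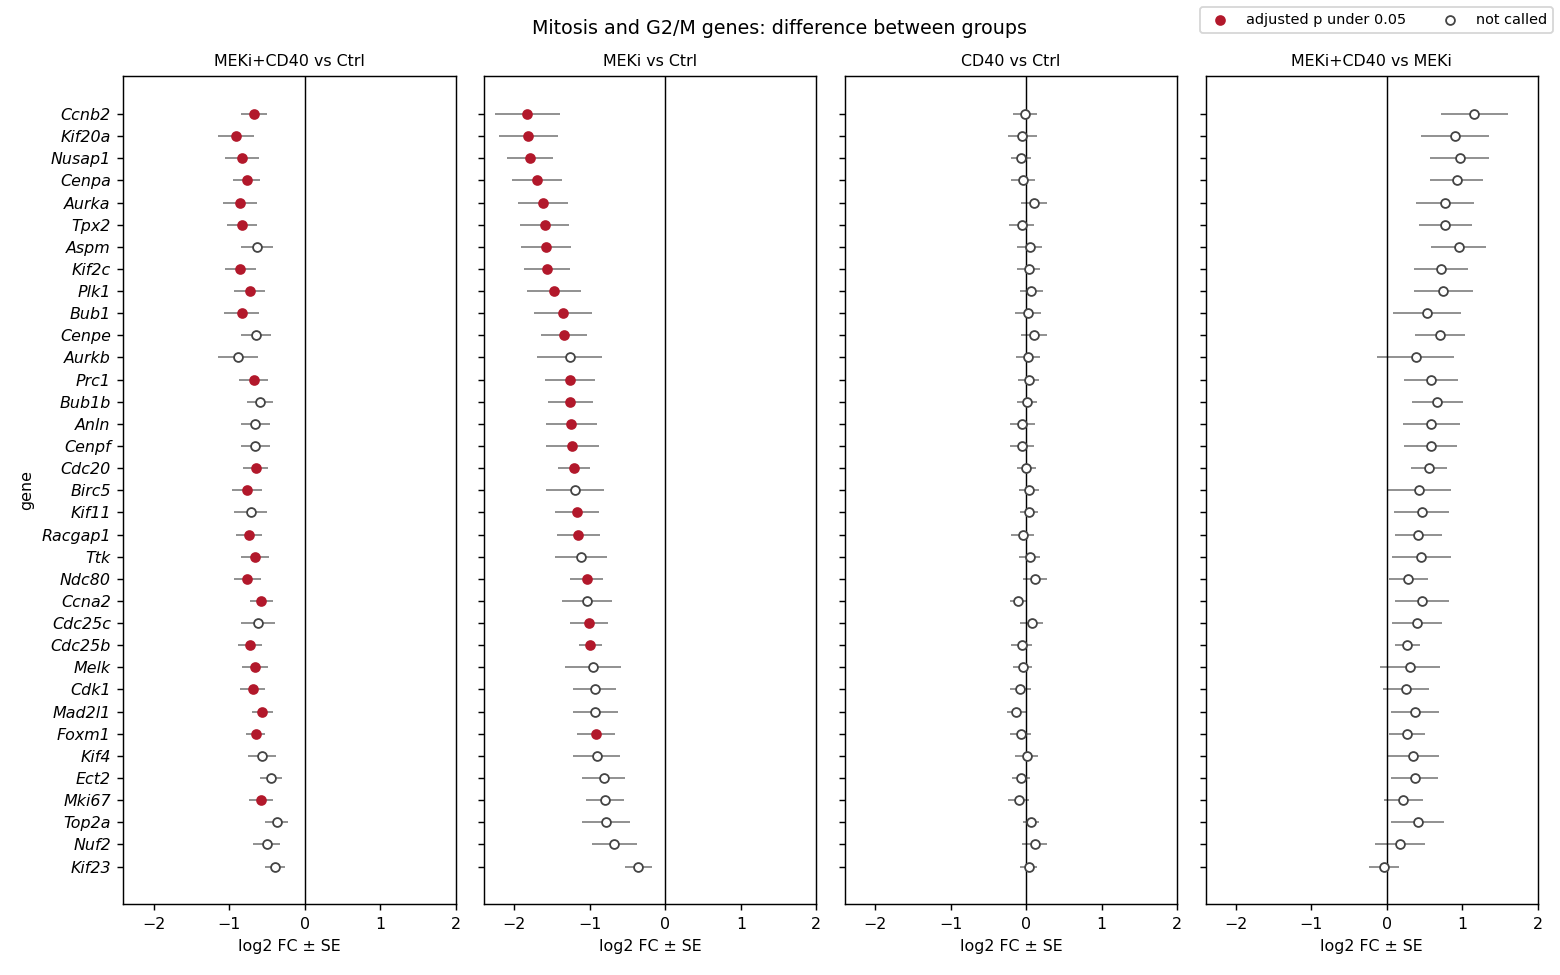
Log2 FC with standard error (horizontal axis) of each mitosis and G2/M gene (vertical axis, ordered by MEKi vs Ctrl) in 4 comparisons, with genes at an adjusted p under 0.05 in red. In MEKi+CD40 vs Ctrl and MEKi vs Ctrl all points lie left of 0 and 22 are red, in CD40 vs Ctrl they lie within 0.13 of 0, and in MEKi+CD40 vs MEKi 34 lie right of 0 with none red.

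Genes of the CDK1 switch were lower in both inhibitor arms, with 5 of 6 falling in MEKi+CD40 (median log2 FC -0.66) and 4 of 6 in MEKi tumors (-1.004) against Ctrl. Cdk1, the kinase that starts mitosis, had signals of 8.86, 9.21, 9.34 and 8.62 in MEKi+CD40 tumors, 8.05, 8.84 and 9.38 in MEKi tumors, 9.80, 9.82, 9.52 and 9.34 in CD40 tumors and 9.92, 9.68, 9.79 and 9.39 in Ctrl tumors. Every inhibitor-treated tumor lay below every Ctrl tumor, though MEKi 3 came within 0.01 of Ctrl 4. The log2 FC was -0.69 ± 0.17 in MEKi+CD40 (adjusted p = 0.0232) and -0.94 ± 0.28 in MEKi tumors (adjusted p = 0.0569, limma), so only the combination passed.

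Ccnb2, a B-type cyclin that activates CDK1, had the lowest MEKi to Ctrl ratio of the set. Its signals were 9.31, 9.41, 9.57 and 8.84 in MEKi+CD40 tumors, 6.89, 8.90 and 8.58 in MEKi tumors, 10.08, 10.17, 9.90 and 9.60 in CD40 tumors and 10.23, 9.92, 10.08 and 9.58 in Ctrl tumors. MEKi 1 stood far below the others, but MEKi 2 and MEKi 3 were also below every Ctrl tumor. The log2 FC was -1.83 ± 0.43 in MEKi (28.1% of Ctrl, adjusted p = 0.0249) and -0.67 ± 0.17 in MEKi+CD40 tumors (62.9%, adjusted p = 0.0311). Its difference between MEKi+CD40 and MEKi tumors, 1.16 ± 0.44, was also the widest of the set and did not pass (adjusted p = 0.225).

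Cdc25b and Cdc25c encode phosphatases that remove the inhibitory phosphates from CDK1. Cdc25b had signals of 6.74, 7.22, 7.33 and 6.84 in MEKi+CD40 tumors, 6.53, 6.88 and 6.87 in MEKi tumors, 7.77, 7.95, 7.53 and 7.54 in CD40 tumors and 8.07, 7.64, 7.84 and 7.47 in Ctrl tumors. It separated all inhibitor-treated from all vehicle-treated tumors and had the lowest adjusted p of the set in MEKi tumors (log2 FC -0.995 ± 0.15, adjusted p = 0.00451), with -0.72 ± 0.16 in MEKi+CD40 tumors (adjusted p = 0.0166). Cdc25c had signals of 5.51, 5.67, 5.80 and 4.69 in MEKi+CD40 tumors, 4.33, 5.38 and 5.35 in MEKi tumors, 6.34, 6.38, 5.95 and 5.76 in CD40 tumors and 6.23, 5.94, 6.19 and 5.77 in Ctrl tumors. MEKi+CD40 3 lay within the Ctrl range, and the gene fell in MEKi (-1.01 ± 0.25, adjusted p = 0.0314) but did not pass in MEKi+CD40 tumors (-0.62 ± 0.22, adjusted p = 0.0993).

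Foxm1, a transcription factor that activates G2/M genes, had signals of 6.75, 6.74, 6.90 and 6.54 in MEKi+CD40 tumors, 5.82, 6.67 and 6.91 in MEKi tumors, 7.47, 7.49, 7.14 and 7.13 in CD40 tumors and 7.68, 7.35, 7.41 and 7.08 in Ctrl tumors. It was below all vehicle-treated tumors in all inhibitor-treated ones. In MEKi+CD40 tumors its values lay close together, and its log2 FC of -0.65 ± 0.12 had the lowest adjusted p of the set (0.00820), while that in MEKi tumors was -0.91 ± 0.25 (adjusted p = 0.0435). Ccna2, the A-type cyclin of S and G2 phase, fell in MEKi+CD40 tumors (-0.58 ± 0.16, adjusted p = 0.0367) and did not pass in MEKi tumors (-1.04 ± 0.34, adjusted p = 0.0738).

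Of the 7 mitotic kinase genes, 5 fell in MEKi+CD40 (median log2 FC -0.73) and 4 in MEKi tumors (-1.27). Plk1, the Polo-like kinase of spindle assembly and mitotic entry, had signals of 7.98, 8.08, 8.15 and 7.24 in MEKi+CD40 tumors, 6.12, 7.60 and 7.62 in MEKi tumors, 8.77, 8.93, 8.51 and 8.43 in CD40 tumors and 8.91, 8.48, 8.73 and 8.25 in Ctrl tumors. No inhibitor-treated tumor reached the vehicle-treated range, and the log2 FC was -0.73 ± 0.21 in MEKi+CD40 (adjusted p = 0.0452) and -1.48 ± 0.36 in MEKi tumors (adjusted p = 0.0267). Aurka, the Aurora kinase of the spindle poles, and Bub1, a kinase of the spindle checkpoint, also fell in both arms, by 0.85 and 0.83 in MEKi+CD40 and by 1.63 and 1.36 in MEKi tumors on the log2 scale.

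Aurkb, the Aurora kinase of the centromere that corrects wrong attachments, passed in neither arm although its groups did not overlap. Its signals were 7.25, 7.71, 7.70 and 6.40 in MEKi+CD40 tumors, 5.66, 7.29 and 7.70 in MEKi tumors, 8.42, 8.42, 7.93 and 7.93 in CD40 tumors and 8.43, 7.94, 8.29 and 7.94 in Ctrl tumors. The wide spread among inhibitor-treated tumors gave log2 FC values of -0.89 ± 0.27 in MEKi+CD40 (adjusted p = 0.0561) and -1.27 ± 0.43 in MEKi tumors (adjusted p = 0.0840). Bub1b, which encodes the checkpoint protein BUBR1, had signals of 7.54, 7.98, 7.93 and 7.17 in MEKi+CD40 tumors, 6.14, 7.33 and 7.49 in MEKi tumors, 8.46, 8.43, 8.14 and 8.00 in CD40 tumors and 8.41, 8.23, 8.36 and 7.98 in Ctrl tumors. MEKi+CD40 2 equalled Ctrl 4, and the gene fell in MEKi (-1.26 ± 0.30, adjusted p = 0.0253) and just missed the threshold in MEKi+CD40 tumors (-0.59 ± 0.18, adjusted p = 0.0527). Ttk, the checkpoint kinase MPS1, and the kinase gene Melk fell in MEKi+CD40 tumors (-0.66 each), and their log2 FC values of -1.12 and -0.96 did not pass in MEKi tumors.

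Cdc20, whose product switches on the anaphase-promoting complex, Mad2l1, whose product restrains CDC20 until attachment is complete, and Birc5, which encodes survivin of the chromosomal passenger complex, all fell in MEKi+CD40 tumors, with log2 FC values of -0.65, -0.56 and -0.76. In MEKi tumors only Cdc20 passed (-1.21 ± 0.21, adjusted p = 0.00749), with Birc5 at -1.19 ± 0.38 (adjusted p = 0.0731). Mad2l1 had the lowest value of the set in CD40 against Ctrl tumors. Its signals were 9.87, 10.05, 10.21 and 9.56 in MEKi+CD40 tumors, 8.73, 9.77 and 10.16 in MEKi tumors, 10.63, 10.48, 10.21 and 10.10 in CD40 tumors and 10.65, 10.48, 10.57 and 10.23 in Ctrl tumors. CD40 and Ctrl tumors overlapped, at a log2 FC of -0.13 ± 0.13 (adjusted p = 0.818), and the log2 FC was -0.93 ± 0.30 in MEKi tumors (adjusted p = 0.0717).

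At the kinetochore, 2 of 5 genes fell in MEKi+CD40 (median log2 FC -0.65) and 4 of 5 in MEKi tumors (-1.23). Ndc80, a subunit of the complex that grips microtubules, had signals of 6.34, 6.49, 6.66 and 5.81 in MEKi+CD40 tumors, 5.53, 6.12 and 6.48 in MEKi tumors, 7.37, 7.55, 7.00 and 6.91 in CD40 tumors and 7.30, 7.17, 7.12 and 6.76 in Ctrl tumors. All inhibitor-treated tumors lay below all vehicle-treated ones, and the gene fell in MEKi+CD40 (-0.76 ± 0.18, adjusted p = 0.0208) and MEKi tumors (-1.04 ± 0.22, adjusted p = 0.0156). Its log2 FC of 0.12 ± 0.16 in CD40 against Ctrl tumors (adjusted p = 0.869) was the highest of the set there. Cenpa, the histone variant that marks centromeres, fell by 0.77 in MEKi+CD40 and by 1.70 in MEKi tumors on the log2 scale. Cenpe, a kinetochore motor, and Cenpf fell in MEKi tumors (-1.35 and -1.23), while Nuf2, the partner of NDC80, passed in neither (-0.50 in MEKi+CD40 and -0.68 in MEKi tumors).

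Spindle genes had the lowest median of any role group in both arms, -0.77 in MEKi+CD40 tumors, where 3 of 6 fell, and -1.57 in MEKi tumors, where 5 of 6 fell. Kif11, the motor that pushes spindle poles apart, had signals of 7.19, 7.39, 7.48 and 6.40 in MEKi+CD40 tumors, 5.85, 6.93 and 7.18 in MEKi tumors, 7.93, 8.00, 7.61 and 7.90 in CD40 tumors and 8.07, 7.91, 7.77 and 7.56 in Ctrl tumors. The inhibitor-treated tumors did not reach the vehicle-treated range, and the gene fell in MEKi (-1.17 ± 0.29, adjusted p = 0.0299) but not past the threshold in MEKi+CD40 tumors (-0.71 ± 0.22, adjusted p = 0.0589). Nusap1, Tpx2 and Kif2c, which encode microtubule-bundling, spindle-nucleating and microtubule-depolymerizing proteins, fell in both arms, with log2 FC values of -0.83, -0.83 and -0.85 in MEKi+CD40 and -1.80, -1.60 and -1.57 in MEKi tumors. Aspm, a spindle pole gene, fell in MEKi tumors (-1.58), and the chromosome motor gene Kif4 passed in neither arm (-0.57 in MEKi+CD40 and -0.91 in MEKi tumors).

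Cytokinesis genes, of which 3 of 6 fell in MEKi+CD40 (median log2 FC -0.67) and 4 of 6 in MEKi tumors (-1.20), held the lowest value of the set in MEKi+CD40 and the highest in MEKi tumors. Kif20a, a motor of the central spindle, had signals of 7.48, 7.79, 7.79 and 6.67 in MEKi+CD40 tumors, 5.40, 7.03 and 7.16 in MEKi tumors, 8.57, 8.67, 8.11 and 7.84 in CD40 tumors and 8.57, 8.41, 8.42 and 7.99 in Ctrl tumors. All inhibitor-treated tumors were below all vehicle-treated ones, and the log2 FC of -0.92 ± 0.24 in MEKi+CD40 tumors (53.0% of Ctrl, adjusted p = 0.0311) was the lowest there, with -1.82 ± 0.39 in MEKi tumors (28.4%, adjusted p = 0.0176). Kif23, a motor of the midbody, had signals of 9.47, 9.43, 9.56 and 9.00 in MEKi+CD40 tumors, 8.96, 9.60 and 9.65 in MEKi tumors, 9.80, 10.02, 9.73 and 9.62 in CD40 tumors and 9.92, 9.76, 9.84 and 9.52 in Ctrl tumors. MEKi 2 and MEKi 3 lay inside the Ctrl range, and the log2 FC was -0.36 ± 0.18 in MEKi (adjusted p = 0.216) and -0.40 ± 0.13 in MEKi+CD40 tumors (adjusted p = 0.0744). It was the single gene of the set whose MEKi+CD40 mean was below its MEKi mean, by a log2 FC of -0.04 ± 0.20.

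The antiparallel microtubule bundler gene Prc1 and Racgap1, which encodes a partner of KIF23 in the central spindle, fell in both arms, by 0.68 and 0.74 in MEKi+CD40 and by 1.26 and 1.16 in MEKi tumors on the log2 scale. Anln, which encodes the ring scaffold anillin, fell in MEKi tumors (-1.24) and missed the threshold in MEKi+CD40 tumors (-0.66, adjusted p = 0.0511). Ect2, the exchange factor that activates RhoA at the division plane, passed in neither (-0.44 in MEKi+CD40 and -0.81 in MEKi tumors).

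Top2a, the topoisomerase that untangles sister DNA, had the highest log2 FC of the set in MEKi+CD40 against Ctrl tumors, at -0.37 ± 0.15 (adjusted p = 0.144). Its signals were 10.29, 10.54, 10.52 and 9.83 in MEKi+CD40 tumors, 9.02, 10.01 and 10.62 in MEKi tumors, 10.91, 10.87, 10.59 and 10.57 in CD40 tumors and 10.85, 10.66, 10.69 and 10.47 in Ctrl tumors. Both inhibitor arms overlapped Ctrl tumors, and the MEKi log2 FC was -0.78 ± 0.32 (adjusted p = 0.139). Mki67, which encodes the proliferation marker Ki-67, had signals of 9.75, 9.95, 9.99 and 9.35 in MEKi+CD40 tumors, 8.91, 9.72 and 9.99 in MEKi tumors, 10.46, 10.37, 10.18 and 9.94 in CD40 tumors and 10.60, 10.30, 10.44 and 10.01 in Ctrl tumors. It fell in MEKi+CD40 tumors (-0.58 ± 0.16, adjusted p = 0.0408), and its log2 FC of -0.80 ± 0.25 in MEKi tumors did not pass (adjusted p = 0.0662) although the arrays did not overlap.

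Brighter other probe sets of the same genes moved alike. There were 39 further probe sets with a symbol of the set alone, of which 36 had a negative log2 FC in MEKi+CD40 and 37 in MEKi tumors against Ctrl. Of these, 17 passed as lower in each comparison, where 8.72% and 10.4% of all measured genes, read on 1 probe set each, were lower. All 24 further probe sets with a mean signal of at least 5 on the log2 scale were negative in both comparisons, at medians of -0.62 and -1.11. Of the 15 dimmer ones, 2 passed as lower in each, a share near that of all measured genes.

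Mitosis genes outside the set were also lower. Of 74 further measured genes of the spindle, kinetochore and chromosome machinery, 37 fell in MEKi+CD40 and 35 in MEKi tumors against Ctrl, with medians of -0.54 and -0.80, where 8.72% and 10.4% of all measured genes were lower. In CD40 against Ctrl tumors 0 passed (limma, 2 at an unadjusted p under 0.05, as against 2094 of all 18193 measured genes). The lowest in MEKi tumors were Pimreg, a mitotic regulator gene (-2.04 ± 0.36, adjusted p = 0.00793), Cep55, a gene of the final cut between daughter cells (-1.74), and Ube2c, the ubiquitin carrier of the anaphase-promoting complex (-1.63), and the highest of those that passed were Cks1b (-0.41) and Cenpc1 (-0.40). Their log2 FC values in MEKi+CD40 tumors were -1.07, -0.88 and -0.76 for Pimreg, Cep55 and Ube2c. In MEKi+CD40 against MEKi tumors 2 of these 74 genes were higher, where 1.38% of all measured genes were. Named here after their values were seen, they were Pttg1, which encodes securin (0.48 ± 0.09, adjusted p = 0.0316), and Cenpt, a kinetochore gene (0.48 ± 0.09, adjusted p = 0.0298). Both also passed in the interaction, at 0.63 ± 0.10 and 0.56 ± 0.10, where 2.00% of all measured genes passed with a positive sign. The interaction contains the same difference between MEKi+CD40 and MEKi tumors, so it is no separate result. These groups never shared a series of animal numbers, as described below.

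Of 13 genes of the anaphase-promoting complex, 3 fell and 1 rose in MEKi+CD40 and 5 fell and 1 rose in MEKi tumors against Ctrl, with median log2 FC values of -0.13 and -0.22. Of all measured genes, 8.72% and 10.4% were lower and 10.3% and 10.7% higher in these comparisons. The lowest were Fzr1, the CDH1 activator (-0.58 ± 0.11 in MEKi tumors, adjusted p = 0.0112), Anapc2 (-0.40) and Anapc4 (-0.37), with Anapc10 at -0.28 and Anapc13 higher at 0.34. Of 21 genes of the MuvB, E2F and pocket protein regulators themselves, 1 fell in MEKi+CD40 tumors (Tfdp2, a dimer partner of E2F, -0.33 ± 0.07, adjusted p = 0.0129), where 8.72% of all measured genes were lower. In MEKi tumors 0 passed (limma, 5 at an unadjusted p under 0.05, as against 6716 of all 18193 measured genes). Tfdp2 and the replication genes below were named after their values were seen.

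DNA replication genes were set beside the mitotic set to see whether S phase genes shared the pattern. Of 31 genes, 4 fell in MEKi+CD40 tumors, where 8.72% of all measured genes were lower, namely Rrm2, Orc6, Pole and Lig1 (log2 FC between -0.46 and -0.28). In MEKi tumors 0 passed (limma, 1 at an unadjusted p under 0.05, as against 6716 of all 18193 measured genes). The medians were -0.20 in MEKi+CD40 and -0.05 in MEKi tumors. Their mean level was 8.58 ± 0.19 (SD, n = 4) in MEKi+CD40, 8.78 ± 0.55 (n = 3) in MEKi, 8.77 ± 0.12 (n = 4) in CD40 and 8.77 ± 0.08 (n = 4) in Ctrl tumors. The MEKi tumors were far apart: 27 of the 31 genes lay below the lowest Ctrl tumor in MEKi 1, where 44.1% of all measured genes did, whereas 30 of 31 lay above the highest Ctrl tumor in MEKi 3, where 32.7% of all measured genes did. In MEKi 3, 31 of 35 mitotic genes lay below the lowest Ctrl tumor, against 33.7% of all measured genes, so in that tumor the lists stood on opposite sides of the Ctrl range. Of the 74 other mitosis genes, 48 lay below and 7 above that range in MEKi 3. Whether the lists differ between groups was not tested.

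**Figure D4:**
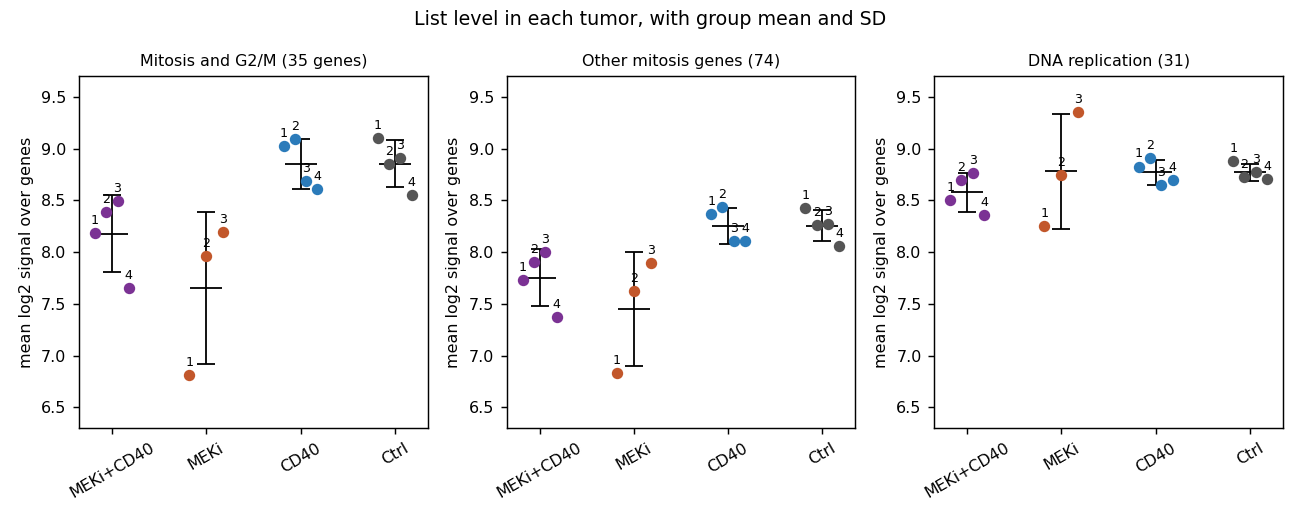
Mean log2 signal over the genes of a list (vertical axis) in each tumor (points, numbered by replicate) with group mean and SD (lines), for the mitosis and G2/M set (left), other mitosis genes (middle) and DNA replication genes (right). In MEKi 3 the mitotic set stood at 8.19, below every vehicle-treated tumor, and the replication list at 9.35, above every vehicle-treated tumor.

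The animal numbers in the labels fell into a series from 10000 on and a series under 10000, and these were unbalanced. All 3 MEKi tumors and Ctrl 4 belonged to the upper series, all 4 MEKi+CD40 tumors and Ctrl 1 to 3 to the lower, and CD40 tumors were split 2 and 2. Among the 8 vehicle-treated tumors, the 3 of the upper series lay below the 5 of the lower in 30 of 35 mitotic genes, as was so in 3.12% of all measured genes, with set means of 8.56 to 8.68 in the upper and 8.85 to 9.10 in the lower series and a median difference of -0.39. In a fit of all 15 arrays, 4 genes were lower in MEKi+CD40 and 32 in MEKi tumors against Ctrl, and with the series added as a covariate 11 and 9 were, at medians of -0.77 and -0.90. Within the lower series 24 genes were lower in MEKi+CD40 against Ctrl tumors (4 against 3 arrays, median -0.79), 0 passed in CD40 against Ctrl (2 against 3, median 0.10) and 1 in MEKi+CD40 against CD40 tumors (4 against 2, median -0.88). Within the upper series 3 MEKi tumors stood beside Ctrl 4 alone, at a median log2 FC of -0.86. A fit that took this single array to vary like the others called 0 genes, which says little with 1 array in an arm. MEKi and MEKi+CD40 tumors never shared a series, so that the difference between these groups and the series cannot be told apart, and with the series as covariate the median interaction was 0.03.

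Markers of other cell types also differed between the groups. Of all measured genes, 10.3% were higher and 8.72% lower in MEKi+CD40 against Ctrl tumors, and 10.7% higher and 10.4% lower in MEKi against Ctrl tumors. Of 15 skeletal muscle markers, 14 were higher in MEKi+CD40 and 2 in MEKi tumors against Ctrl. The mean level of the list ranged over 7.60 to 9.17 in MEKi+CD40, 7.31 to 10.16 in MEKi, 4.50 to 6.22 in CD40 and 4.53 to 6.74 in Ctrl tumors. Of 12 skin keratinocyte markers, 2 were lower in MEKi+CD40 and 7 higher in MEKi tumors (4.55 to 5.00 in MEKi+CD40, 6.14 to 6.73 in MEKi, 4.69 to 5.99 in CD40 and 4.67 to 5.75 in Ctrl tumors). Of 12 fibroblast markers, 5 were higher in MEKi+CD40 and 11 in MEKi tumors (10.04 to 10.41 in MEKi+CD40, 10.81 to 11.67 in MEKi, 9.02 to 10.05 in CD40 and 9.42 to 9.66 in Ctrl tumors). Of 11 epithelial markers, which PDA30364 cells share with any epithelium, 3 were higher in MEKi+CD40, and 3 were higher and 1 lower in MEKi tumors, with levels of 9.89 to 10.13 in MEKi+CD40, 10.15 to 10.52 in MEKi, 9.34 to 9.84 in CD40 and 9.31 to 9.74 in Ctrl tumors. Of 10 macrophage and 8 T cell markers, 9 and 7 were higher in MEKi+CD40 and 0 in MEKi tumors. With CD40 Ab alone, 6 and 3 of them were higher against Ctrl and 0 lower, where 1.01% of all measured genes were higher. The muscle, skin, fibroblast and epithelial lists had 0 genes called in that comparison. The macrophage levels ranged over 9.47 to 10.23 in MEKi+CD40, 8.72 to 10.07 in MEKi, 9.38 to 9.68 in CD40 and 8.84 to 9.12 in Ctrl tumors, and the T cell levels over 6.29 to 7.34 in MEKi+CD40, 5.18 to 6.86 in MEKi, 5.67 to 6.15 in CD40 and 5.04 to 5.48 in Ctrl tumors. Single MEKi tumors differed here, as all 10 macrophage and all 8 T cell markers lay above the highest Ctrl tumor in MEKi 1, 6 and 7 did in MEKi 3 and 0 in MEKi 2. Of all measured genes, 29.0%, 32.7% and 28.8% lay above it in MEKi 1, MEKi 3 and MEKi 2. With the muscle and skin levels added as covariates to the fit of all 15 arrays, the counts of lower mitotic genes against Ctrl were 0 in MEKi+CD40 (4 without the covariates) and 0 in MEKi tumors (32 without them), the median log2 FC was -0.13 in MEKi+CD40 and -0.76 in MEKi tumors, and Ccnb2 and Ccna2 had positive values in MEKi+CD40 tumors (0.19 and 0.049). With the epithelial level as covariate in that fit, chosen after seeing the data, 0 passed at medians of -0.74 and -1.32. The muscle and epithelial levels were higher in every inhibitor-treated tumor than in every vehicle-treated one. Skin levels were so only in MEKi tumors, and the macrophage and T cell levels of MEKi tumors overlapped those of Ctrl tumors. Treatment and tissue content cannot be told apart here.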

How the data were processed

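The deposited values were log2 signals per probe set, which the authors made with RMA (robust multi-array average: background correction, quantile normalization and summarization) from 1 Affymetrix array per tumor; the RMA version is not given in the sources used here. RMA fixes the distribution of each array (medians 5.16 to 5.24), so values are relative to the other transcripts of a tumor. Of 45101 probe sets, 64 controls were left out, and 34945 carried 1 gene symbol. No arrays were identical. The paper gives 4 mice per treatment group for its tumor transcriptomes, and why MEKi has 3 arrays is not known. The number of arrays, 3 or 4 per group, limits the precision. A p-value sets a difference between groups against the spread between tumors within groups. It does not separate treatment from the unbalanced series of animal numbers.

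Groups came from the labels and were compared in pairs with limma 3.58.1 (lmFit and eBayes, two-sided) in R 4.3.3, as the methods describe, with Benjamini-Hochberg adjustment over 45037 probe sets at 0.05. The interaction used all 15 arrays. Log2 FC is given ± standard error and intervals are at 95%. The fits were run on simulated data with noise drawn separately for each probe set. Such data lack the shifts that many genes of a tumor share, so they do not test the counts given here. The members and gene lists were chosen with earlier results of these data known. Array values were given for a fixed choice of genes from each role and the highest and lowest members of 4 comparisons, and pathway genes by the 3 lowest and 2 highest that passed in MEKi tumors. Promoters were compared as text in Python 3.11.15. Alternatives were other error models, normalizations, probe set choices and thresholds, covariates, the replicate block and leaving out each array.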

Additional observations from a re-analysis of the deposited data

Results flagged for a closer look

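In 3 of 105 groups of 4 arrays examined (35 genes in MEKi+CD40, CD40 and Ctrl tumors), a single tumor lay far from the rest by Dixon's criterion, which chance alone meets in about 1 of 20 groups. All 3 concerned MEKi+CD40 4, the tumor with the lowest signal of its group in 34 of 35 genes. Its signal was 7.39 for the kinetochore motor gene Cenpe, where the other MEKi+CD40 tumors lay between 8.11 and 8.25, 6.05 for the chromosome motor gene Kif4, where they lay between 6.74 and 6.83, and 7.06 for the spindle pole gene Aspm, where they lay between 7.84 and 7.95. MEKi tumors, with 3 arrays, were not examined in this way. The share of groups flagged was below the rate of chance, and the groups reuse the same tumors, so they are not independent.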

How the results depend on the processing

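In MEKi+CD40 against Ctrl, 22 of 35 genes were lower, and this count was 4 in a fit of all 15 arrays, 1 at an adjusted p under 0.01, 0 with a 2-fold minimum and, with covariates added to the fit of all 15 arrays, 11 with the animal number series and 0 with muscle and skin or with epithelial levels. In MEKi against Ctrl (22) it was 32 in the fit of all 15 arrays, and 9 with the series and 0 with either tissue covariate added to it, 3 at an adjusted p under 0.01, and 0 within the upper series, where the Ctrl arm held 1 array and the median was -0.86. In MEKi+CD40 against CD40 (6) it was 2 in the fit of all 15 arrays, 1 with array weights, 11 without dim probe sets, 13 with probe sets averaged per gene, 0 at the stricter threshold, the 2-fold minimum and both tissue covariates, and 1 within the lower series. In MEKi+CD40 against MEKi it was 3 higher without MEKi 1 and MEKi+CD40 4. Leaving out each array gave 1 to 27, 7 to 33 and 0 to 13 lower genes in the first 3 comparisons, with medians of -0.79 to -0.50, -1.48 to -0.77 and -0.76 to -0.51, and 0 genes called in the others, whose medians ranged over -0.09 to 0.10 (CD40 against Ctrl), 0.05 to 0.80 (MEKi+CD40 against MEKi) and 0.09 to 0.79 (interaction). With muscle and skin covariates the medians against Ctrl and CD40 were -0.13 and -0.01, and Ccnb2 (0.19) and Ccna2 (0.049) against Ctrl and Birc5 (0.024) against CD40 turned positive. With the series the median interaction was 0.03. The cause of these changes was not tested. Replicate numbers paired no samples (correlations of deviations from -0.36 to 0.24 in 21 same-numbered pairs, 5 over 0.1), and the replicate block gave 33 lower genes in MEKi+CD40 and 7 in MEKi against Ctrl and 5 in MEKi+CD40 against CD40.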
